A study of Rattus norvegicus with 24 samples.

Results

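Of 18137 genes measured in rat cerebellum, 82 genes of oxidative phosphorylation are described here. They were taken from the annotated expression table by symbol: every row with 1 symbol that began with Nduf, Uqcr, Atp5, Cox4, Cox5, Cox6, Cox7 or Cox8, or that was Sdha, Sdhb, Sdhc, Sdhd or Cyc1, with the brightest probe set kept for each gene. Placed by symbol, they were 34 genes of complex I, 4 of complex II, 8 of complex III, 16 of complex IV and 13 of complex V. The symbols also took in 4 assembly factors of complex I (Ndufaf1 to Ndufaf4) and 3 genes that carry an older name only: Atp5s is now Dmac2l, Atp5sl is now Dmac2 and Cox4nb is now Emc8. Cox6c1 is now listed by RefSeq as a transcribed pseudogene, Cox6c-ps1. It is included under complex IV here, as is Cox7a2l, a relative of a complex IV subunit. Ndufa4, now counted as a complex IV subunit, is included under complex I. A further 12 probe sets carried several symbols, the first of which fitted the rule, and were left out. The probe set shared by Gabpa and Atp5j was left out as well. Atp5e, Atp5g1, Ndufa10, Ndufb4 and Ndufs6 were therefore not among the 82 genes.

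The study is an array series on a rat model of hepatic encephalopathy, in which liver failure or a shunt past the liver disturbs brain function. All samples were cerebellum of Sprague-Dawley rats. The 5 groups were sham surgery (Sham, 5 arrays), portocaval anastomosis (PCA, 5 arrays), in which portal blood is led past the liver, and PCA followed by infusions of ammonia (PCA+NH3, 5 arrays), of lipopolysaccharide (PCA+LPS, 5 arrays) or of both (PCA+NH3+LPS, 4 arrays). Tissue was taken 6 months after the anastomosis, and the infused rats had received 10 infusions at intervals of 2 weeks, with ammonia given as ammonium acetate at 20 µl/min for 3 h and LPS, an endotoxin of Gram-negative bacteria that sets off inflammation, at 5 mg/kg. Every infused group also carried the shunt, and there was no group with infusions and without it. The labels give no age or sex, and do not say whether Sham and PCA rats received a vehicle. They do not say either that the numbered samples of a group came from separate animals, so p-values measure the spread between these samples, which may be technical.

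Oxidative phosphorylation takes place at the inner mitochondrial membrane. Complexes I and II pass electrons from NADH and succinate to ubiquinone, complex III passes them on to cytochrome c, and complex IV, cytochrome c oxidase, passes them to oxygen. Complexes I, III and IV pump protons, and complex V, the ATP synthase, uses the gradient to make ATP. Most subunits are encoded in the nucleus and a small core in mitochondrial DNA. Neurons depend heavily on this pathway, and ammonia has long been studied in hepatic encephalopathy for its effects on brain energy metabolism.

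Values are log2 expression in steps of 0.1. All 10 granule cell and all 9 Purkinje cell markers were measured, among them Gabra6 between 11.8 and 12.4 and Pcp2 between 10.3 and 10.7, as the cerebellar label requires. Other parts of the dissection varied between arrays. The 13 choroid plexus markers had a mean, relative to each gene's own mean, of 1.10 ± 1.52 (SD, n = 5) in PCA+NH3 and 0.23 ± 1.70 (n = 4) in PCA+NH3+LPS, against means between -0.50 and -0.38 in the other groups. PCA+NH3 arrays 1, 2 and 5 and PCA+NH3+LPS array 3 carried that signal. Fits without these 4 arrays, given below, keep only arrays 3 and 4 of PCA+NH3 and arrays 1, 2 and 4 of PCA+NH3+LPS. Sham array 1 had the highest myelin mean, at 1.16, and the highest brainstem mean, at 1.11, with a granule cell mean of -0.58. In bulk tissue, fewer cells of a type and less RNA per cell cannot be told apart, and a level in the whole sample does not give the level in a single cell type.

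Promoters of the members were read from the RefSeq table of rat promoters (build GRCr8), which held 70 of the 82 genes. The 250 bases before each start were searched on both strands for 4 motifs of factors known to drive nuclear genes of the respiratory chain. NRF1 was searched as GCGC and TGCGC separated by any 1 base, ETS factors such as GABP as CCGGAAG, estrogen-related receptors (ERR) as TNAAGGTCA and YY1 as AANATGGCG, and no overlap between motifs was removed. The ETS motif stood in 21 of the 70 promoters (30.0%), against 7.74% of 27457 promoters in the table and 9.52% of the 19005 that belong to protein-coding genes. The NRF1 motif stood in 11 (15.7%), against 4.17% of all promoters and 5.45% of those of protein-coding genes. YY1 was found in 3 (4.29%, against 1.45% of all) and ERR in 1 (1.43%, against 1.0%), and 32 of the 70 (45.7%) held at least 1 of the 4, against 13.2% of all. Their median GC content was 56.8%, against 54.8% for protein-coding promoters, and its part in the motif shares was not tested. Such matches describe letters in a window and not bound sites.

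Shown first are 3 promoters with the ETS motif, in capitals: Ndufa2, Uqcrq and Cox5b, the members with the smallest p-values for LPS, whose values follow below. The motif reads CCGGAAG on the strand shown, or CTTCCGG where it lies on the other strand.
Ndufa2, chr18:28631885-28632134, minus strand: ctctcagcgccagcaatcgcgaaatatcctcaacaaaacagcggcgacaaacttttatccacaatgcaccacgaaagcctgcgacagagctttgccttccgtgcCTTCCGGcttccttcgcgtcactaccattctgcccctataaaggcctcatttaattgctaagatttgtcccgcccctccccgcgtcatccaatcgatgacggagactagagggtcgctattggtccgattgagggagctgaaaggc
Uqcrq, chr10:38089979-38090228, minus strand: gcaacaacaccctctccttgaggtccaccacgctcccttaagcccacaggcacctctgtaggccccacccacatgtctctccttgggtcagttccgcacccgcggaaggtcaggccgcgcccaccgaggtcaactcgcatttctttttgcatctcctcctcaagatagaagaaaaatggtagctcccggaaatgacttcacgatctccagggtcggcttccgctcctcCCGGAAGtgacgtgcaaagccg
Cox5b, chr9:46417587-46417836, plus strand: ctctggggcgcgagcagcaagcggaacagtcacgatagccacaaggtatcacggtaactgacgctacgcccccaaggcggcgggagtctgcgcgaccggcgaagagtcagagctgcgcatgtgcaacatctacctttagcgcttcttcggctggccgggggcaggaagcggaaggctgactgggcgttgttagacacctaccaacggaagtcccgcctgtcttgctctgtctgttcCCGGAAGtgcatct

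The next promoter belongs to Cox7a2l, the member with the smallest p-value for the shunt, and holds none of the 4 motifs. Ndufa5 and Atp5i follow as members with the NRF1 motif, in capitals, and Atp5i (now Atp5me) also has the ETS motif in capitals at its downstream end. In Ndufa5 the NRF1 motif lies on the other strand, so it reads GCGCA and GCGC separated by 1 base on the strand shown.
Cox7a2l, chr6:16936324-16936573, plus strand: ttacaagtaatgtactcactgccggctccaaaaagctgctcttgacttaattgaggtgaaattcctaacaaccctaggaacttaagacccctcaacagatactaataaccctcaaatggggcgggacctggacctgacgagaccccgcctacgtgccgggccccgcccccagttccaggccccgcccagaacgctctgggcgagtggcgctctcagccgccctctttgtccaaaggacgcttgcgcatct
Ndufa5, chr4:53971236-53971485, minus strand: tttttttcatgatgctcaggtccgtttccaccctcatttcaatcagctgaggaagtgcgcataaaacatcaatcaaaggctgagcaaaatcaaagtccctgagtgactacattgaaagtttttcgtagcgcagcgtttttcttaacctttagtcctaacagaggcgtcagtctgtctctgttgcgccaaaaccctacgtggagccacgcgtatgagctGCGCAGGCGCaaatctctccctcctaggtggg
Atp5i, chr14:1464610-1464859, plus strand: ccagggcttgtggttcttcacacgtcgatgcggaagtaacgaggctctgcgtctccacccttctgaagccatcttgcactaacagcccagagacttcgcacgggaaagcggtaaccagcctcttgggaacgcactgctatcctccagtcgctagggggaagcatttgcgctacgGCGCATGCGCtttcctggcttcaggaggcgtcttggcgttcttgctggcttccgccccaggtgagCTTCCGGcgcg

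The first question was whether the shunt alone shifts these genes. No member passed in PCA against Sham (0 of 82, and 0% of all 18137 genes, limma adjusted p of 0.987 or more), and none passed at an unadjusted p under 0.05, where 3.59% of all genes did. The median difference of the members was 0 on the log2 scale, as it was over all genes, with 38 members higher, 30 lower and 14 equal in the group means. The differences ran from -0.16 for Cox7a2l to 0.16 for Ndufb6. Every 95% interval lay within 0.5 either way, which is 1.41-fold, so larger shifts of single members lay outside the intervals.

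With all 4 shunted groups set against Sham, again no member passed (0 of 82, limma adjusted p of 0.724 or more, against 0.00551% of all genes called). Only Cox7a2l had an unadjusted p under 0.05, a share of 1.22%, where 5.94% of all genes did. Among probe sets not used for the members, the dim second one of Ndufb5 stood at -0.29 (SE 0.09), against 0 (SE 0.07) for the one used. A probe set shared by Ndufa10 and Ndufa10l1 stood at 0.15 (SE 0.07), and another of the same pair at -0.01 (SE 0.13). The members' median was 0.015, against -0.002 for all genes, and 44 were higher and 37 lower. Cox7a2l encodes a relative of the complex IV subunit Cox7a2 that joins complexes III and IV into supercomplexes. Its level was 10.2, 10.2, 10.1, 10.2 and 10.2 in Sham, 10, 9.8, 9.9, 10.1 and 10.3 in PCA, 10, 9.9, 10, 10.2 and 9.8 in PCA+NH3, 10.1, 10, 9.8, 10.2 and 10 in PCA+LPS, and 10, 9.8, 9.9 and 9.8 in PCA+NH3+LPS. Most shunted arrays lay below the Sham arrays, but PCA array 5 lay above all of them and the groups overlapped. Its difference was -0.21 (SE 0.07, limma adjusted p = 0.724).

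Cox7c, a small subunit of complex IV, had the next smallest p in that comparison, with a difference of 0.18 (SE 0.09, limma adjusted p = 0.84). It was 11.1, 11.2, 10.8, 10.9 and 10.7 in Sham and 11.3, 11.2, 11, 11 and 10.9 in PCA, so that both groups overlapped. The other members of smallest p for all shunted groups were Ndufaf3 at -0.11, Ndufb9 at -0.09, Cox4i2 at -0.14, Atp5g2 at 0.11, Ndufa9 at 0.10 and Ndufb2 at 0.14, none of which passed. For PCA alone they were Atp5i at 0.14, Ndufs4 at -0.10, Cox6b2 at 0.14, Ndufb10 at 0.12, Cox7c at 0.14, Ndufa9 at 0.10 and Ndufb3 at 0.14, each with a limma adjusted p of 0.987. They came from complexes I, IV and V and pointed both ways.

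**Figure D1:**
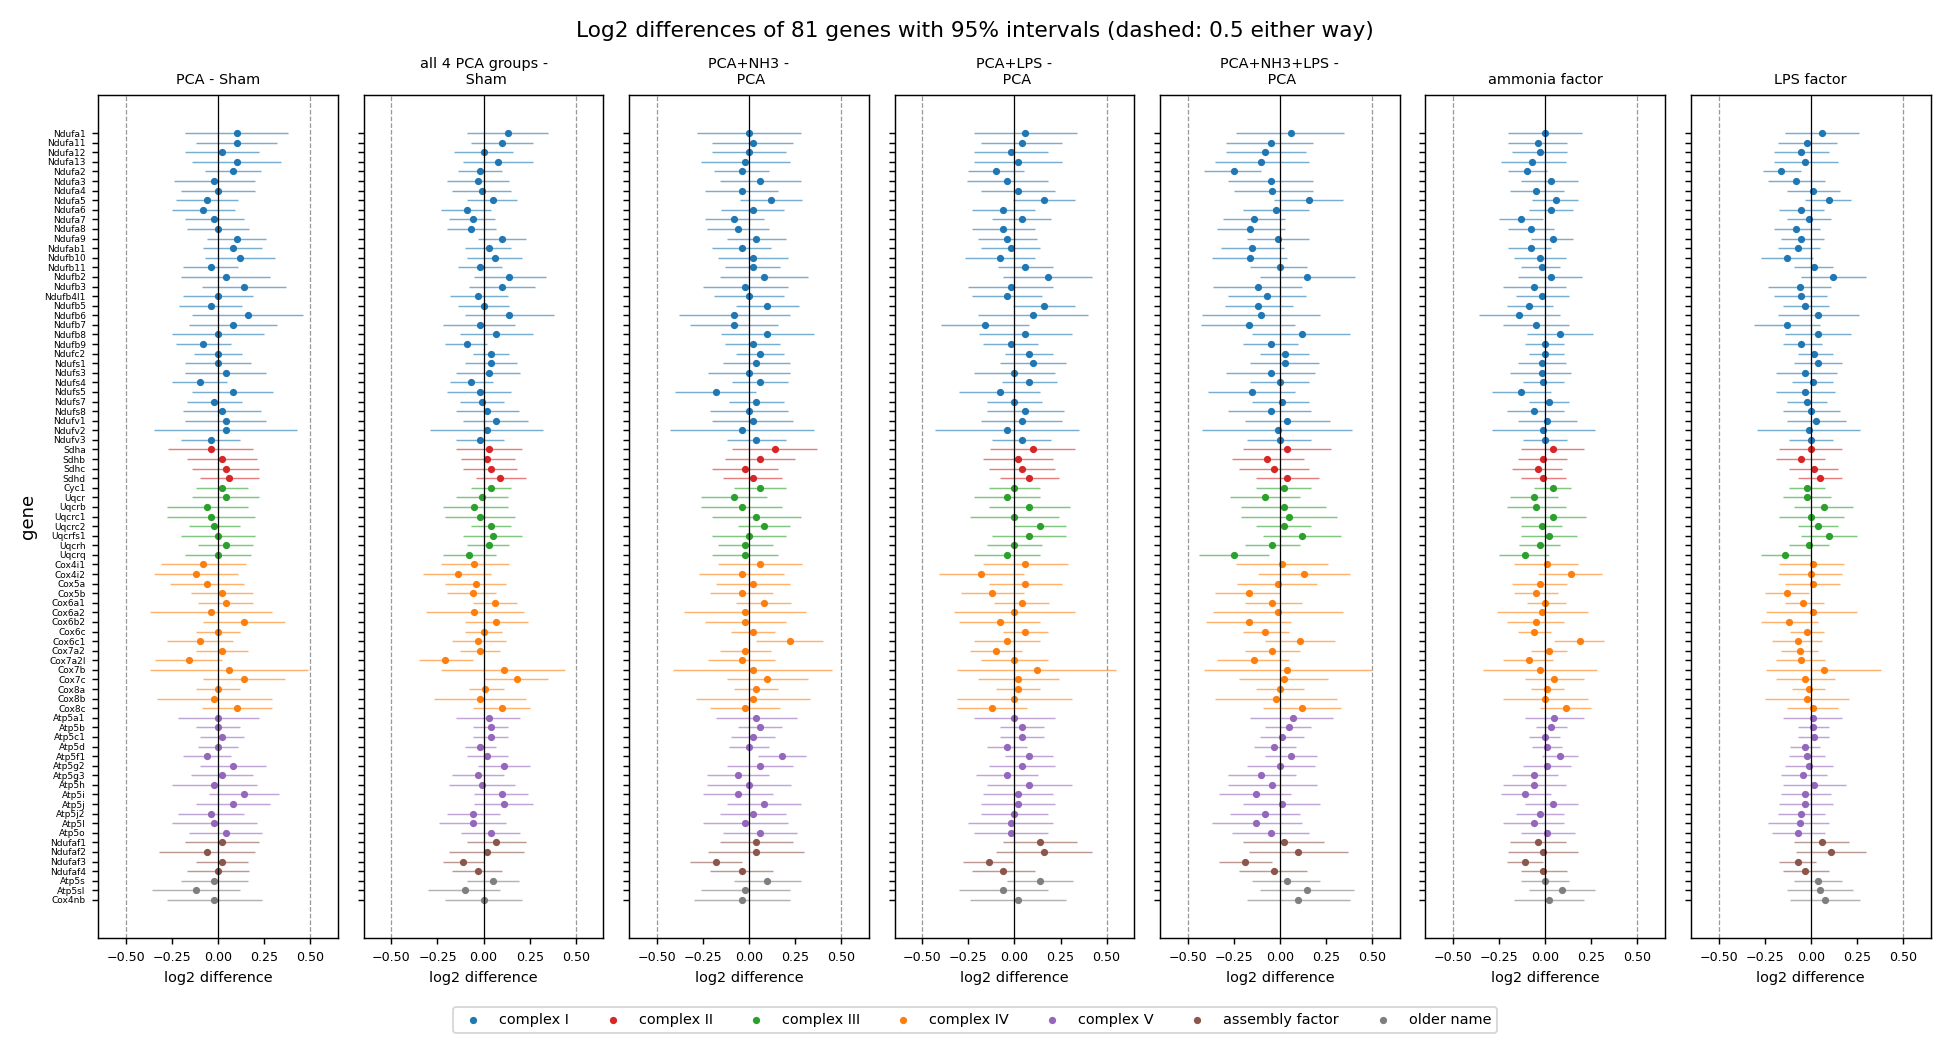
Log2 difference (x axis) of 81 of the genes (y axis, coloured by complex) in 7 comparisons, with 95% intervals from limma and dashed lines at 0.5 either way. Points lie on both sides of 0 in every panel, and 1 interval reaches past 0.5, that of Cox7b in PCA+LPS against PCA at 0.55.

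Adding ammonia to the shunt asked whether its infusion shifts the pathway. In PCA+NH3 against PCA 0 of 82 members passed (0% of all genes, limma adjusted p of 0.951 or more), and 3 had an unadjusted p under 0.05 (3.66%, against 4.98% of all genes). The members' median was 0.02, against 0 for all genes. Atp5f1, the b subunit of the peripheral stalk of ATP synthase (now Atp5pb), was 9.2, 9.5, 9.2, 9.4 and 9.4 in PCA and 9.6, 9.6, 9.6, 9.4 and 9.4 in PCA+NH3. All 5 Sham arrays stood at 9.4, inside both ranges. Its difference from PCA was 0.18 (SE 0.06, limma adjusted p = 0.951).

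The other 2 were Ndufaf3 and Cox6c1. Ndufaf3, an assembly factor of complex I, was 6.7, 6.7, 6.6, 6.7 and 6.6 in PCA and 6.4, 6.4, 6.5, 6.5 and 6.6 in PCA+NH3, with a difference of -0.18 (SE 0.07, limma adjusted p = 0.951). The pseudogene Cox6c1 was 3.6, 3.6, 3.6, 3.7 and 3.7 in PCA and 4, 3.9, 3.8, 3.8 and 3.8 in PCA+NH3, without overlap, at 0.22 (SE 0.09, limma adjusted p = 0.951). In Sham it spanned 3.5 to 4, the whole range of both, and its probe set was among 8 of the members that lay below the median level of all probe sets. The PCA+NH3 arrays with choroid plexus signal were arrays 1, 2 and 5, and array 1 held the highest Cox6c1 value of its group. Without the 4 arrays that carried the signal, only arrays 3 and 4 of PCA+NH3 were left. The differences were then 0.16 for Atp5f1, -0.16 for Ndufaf3 and 0.16 for Cox6c1, and the part of the signal in them was not tested. Further members of small p were Ndufs5 at -0.18, Ndufa5 at 0.12, Sdha at 0.14, Ndufb5 at 0.10 and Atp5s at 0.10.

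LPS added to the shunt gave the same count. In PCA+LPS against PCA 0 of 82 members passed (0% of all genes, limma adjusted p of 0.988 or more), and Ndufaf3 alone had an unadjusted p under 0.05 (1.22%, against 4.01% of all genes). It was 6.6, 6.5, 6.5, 6.6 and 6.4 in PCA+LPS, at -0.14 (SE 0.07) from PCA. The median of the members was 0.02, against 0 for all genes. Uqcrc2, a core protein of complex III, had a difference of 0.14 (SE 0.07) and Ndufa5 and Ndufb5, accessory subunits of complex I, one of 0.16 each (SE 0.08). Atp5s stood at 0.14, Cox4i2 at -0.18, Ndufb2 at 0.18 and Cox5b at -0.12, and their intervals all held 0. The microglial marker mean was 0.21 ± 0.21 in PCA+LPS against 0.03 ± 0.21 in PCA (n = 5 each).

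Ammonia and LPS together gave the most negative differences of the infusion comparisons. In PCA+NH3+LPS against PCA 0 of 82 passed (0% of all genes, limma adjusted p of 0.88 or more), 3 had an unadjusted p under 0.05, all with lower means (3.66%, against 4.16% of all genes), and the median was -0.02 against 0. They were Ndufa2, an accessory subunit of the NADH-binding arm of complex I, Uqcrq, a small subunit of complex III, and Ndufaf3 at -0.19 (SE 0.07). Ndufa2 was 7.2, 7.2, 7.1, 7.1 and 7.3 in PCA and 7, 7.1, 6.8 and 6.8 in PCA+NH3+LPS, so the groups met at 7.1. Its difference was -0.25 (SE 0.08, limma adjusted p = 0.88), and its Sham arrays stood at 7.1, 7.1, 7.1, 7 and 7.2.

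Uqcrq was 9.5, 9.3, 9.4, 9.4 and 9.4 in PCA and 9.2, 9.2, 9 and 9.2 in PCA+NH3+LPS, which did not overlap, at -0.25 (SE 0.09, limma adjusted p = 0.997). Sham arrays spanned 9.1 to 9.6 and overlapped both groups. The next members were Cox5b at -0.17, Ndufab1, the mitochondrial acyl carrier protein, at -0.15, Ndufa8 at -0.16, Ndufa5 at 0.16 and Ndufb10 at -0.16, none of which passed. The infusion comparisons share the 5 PCA arrays, and Ndufa2 and Ndufaf3 had their highest group mean in PCA, so that they were lower in all of them. Against Sham, 0 members passed in PCA+NH3, PCA+LPS and PCA+NH3+LPS (0%, 0.0331% and 0% of all genes), and at an unadjusted p under 0.05 there were 3, 1 and 5 (against 6.05%, 7.47% and 4% of all genes). These were Cox7a2l, Cox7c and Ndufaf3 in PCA+NH3, Cox4i2 at -0.30 (SE 0.11) in PCA+LPS, and Cox7a2l, Cox8c, Ndufa2, Ndufaf3 and Uqcrq in PCA+NH3+LPS.

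**Figure D2:**
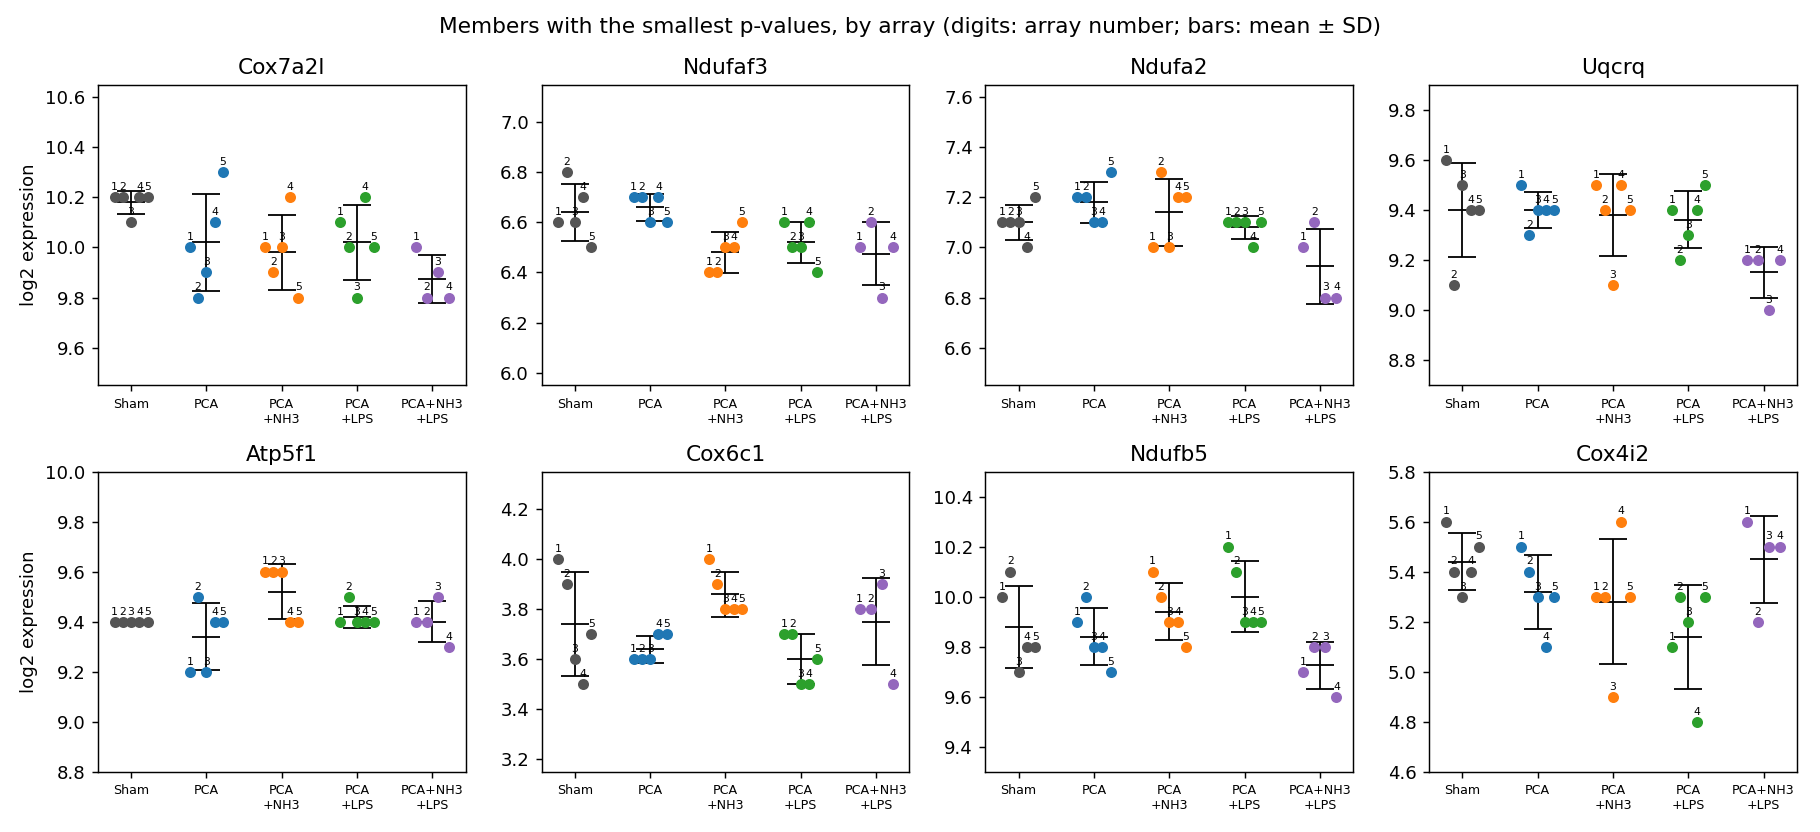
Log2 expression (y axis, each panel spanning the same width) of 8 members with small p-values on each array, by group, with the mean and SD as bars and the array number above each point. Ndufa2 and Uqcrq have their lowest mean in PCA+NH3+LPS, at 6.92 and 9.15, and shunted arrays of Cox7a2l lie mostly below its Sham arrays.

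The factor comparisons use all 19 shunted arrays. The ammonia factor sets PCA+NH3 and PCA+NH3+LPS against PCA and PCA+LPS, and the LPS factor sets PCA+LPS and PCA+NH3+LPS against PCA and PCA+NH3. For ammonia 0 of 82 members passed (0.0165% of all genes, limma adjusted p of 0.677 or more) and 3 had an unadjusted p under 0.05 (3.66%, against 5.57% of all genes), with a median of -0.01 against -0.005. These were Cox6c1 at 0.19 (SE 0.06, limma adjusted p = 0.677), Ndufaf3 at -0.11 (SE 0.05) and Ndufa7, an accessory subunit of complex I, at -0.13 (SE 0.06). After them came Ndufa2 at -0.10, Uqcrq at -0.11, Atp5f1 at 0.08, Atp5i at -0.11 and Cox4i2 at 0.14.

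For LPS 0 of 82 passed (0.0165% of all genes, limma adjusted p of 0.997 or more) and 3 had an unadjusted p under 0.05 (3.66%, against 3.09% of all genes), with a median of -0.01 against 0.002. All 3 had the ETS motif shown above: Ndufa2 at -0.16 (SE 0.05), Cox5b, a nuclear-encoded subunit of complex IV, at -0.13 (SE 0.06) and Uqcrq at -0.14 (SE 0.06). Cox5b was 8.7, 8.7, 8.5, 8.6 and 8.5 in PCA, 8.8, 8.5, 8.5, 8.5 and 8.5 in PCA+NH3, 8.5, 8.6, 8.4, 8.4 and 8.5 in PCA+LPS and 8.5, 8.5, 8.3 and 8.4 in PCA+NH3+LPS. The groups with and without LPS overlapped. These genes were picked by p-value and the motif stood in 30.0% of members, so no link between motif and LPS was tested. The rest of the 8 members of smallest p were Ndufb10 at -0.13, Ndufa5 at 0.10, Cox6b2 at -0.12, Ndufb7 at -0.13 and Ndufaf3 at -0.07. Ndufb7 stood at 0.01 without the 4 arrays with choroid plexus signal.

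A moderated F-test over the 5 groups called 0 of 82 members (0.011% of all genes, limma adjusted p of 0.996 or more), and 3 had an unadjusted p under 0.05 (3.66%, against 4.77% of all genes). The smallest p-values belonged to Ndufaf3, Ndufa2, Cox7a2l, Cox6c1, Ndufb5 and Uqcrq. Between the highest and the lowest of its 5 group means a member differed by a median of 0.12, from 0.04 for Cox8a to 0.31 for Cox4i2. The median SD within groups was 0.142 for the members and 0.158 over all genes, which sets the scale for the group differences.

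Nuclear-encoded core subunits of complex I form the arm with the flavin and the iron-sulfur clusters, and in each of those named here the group means differed by less than the widest SD of a group. Ndufv1, which binds NADH, was 9.72 ± 0.16 in Sham, 9.76 ± 0.21 in PCA, 9.78 ± 0.15 in PCA+NH3, 9.8 ± 0.21 in PCA+LPS (n = 5 each) and 9.8 ± 0.08 in PCA+NH3+LPS (n = 4). Ndufs1, with iron-sulfur clusters of the same arm, was 9.40 ± 0.16, 9.40 ± 0.14, 9.44 ± 0.15, 9.5 ± 0.10 and 9.43 ± 0.10 in the same order. For Ndufs3, Ndufs7 and Ndufs8 the 5 group means spanned 8.45 to 8.5, 11.02 to 11.06 and 8.43 to 8.54.

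Ndufv2 had the widest spread among these core subunits. Its values were 10.7, 10.1, 9.8, 9.9 and 10 in Sham, 10.5, 10.2, 10.1, 9.9 and 10 in PCA, 10.6, 10.2, 10.2, 9.8 and 9.7 in PCA+NH3, 10.6, 10.1, 10.2, 9.9 and 9.7 in PCA+LPS and 10.3, 10.2, 10.3 and 9.7 in PCA+NH3+LPS. The group means lay between 10.10 and 10.14 while single groups spanned up to 0.9. Over the 34 genes of complex I the median difference was 0.01 in PCA against Sham, 0.02 in both PCA+NH3 and PCA+LPS against PCA and -0.05 in PCA+NH3+LPS against PCA, where 24 of 34 were lower (70.6%, against 49.8% of all genes). Only Ndufa2 among them reached an unadjusted p under 0.05 there (2.94%), and 1 of 34 also did so in each factor comparison.

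Among the accessory subunits of the membrane arm, Ndufb6 and Ndufb7 were in the 6 members of widest range. Ndufb6 was 10.4, 10.2, 11, 10.9 and 10.7 in Sham, 10.6, 10.6, 10.6, 11.1 and 11.1 in PCA and between 10.5 and 11.1 in the infused groups. Ndufb7, which faces the intermembrane space, spanned 9.3 to 10 in Sham and 9.1 to 9.8 elsewhere. In both genes the spread within Sham was larger than any difference between group means. Ndufa4, first described in complex I and now counted as a complex IV subunit, had group means between 11.22 and 11.28.

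Complex II, succinate dehydrogenase, is the complex with no mitochondrially encoded subunit, and all 4 of its genes were measured. Sdha, the flavoprotein, was 9.9, 9.8, 9.4, 9.5 and 9.4 in Sham, 9.7, 9.7, 9.6, 9.4 and 9.4 in PCA, 9.8, 9.9, 9.6, 9.6 and 9.6 in PCA+NH3, 9.9, 9.7, 9.7, 9.6 and 9.4 in PCA+LPS and 9.8, 9.7, 9.5 and 9.4 in PCA+NH3+LPS. All groups overlapped. Sdhb, the iron-sulfur subunit, had group means from 9.38 to 9.5, and the membrane anchors Sdhc and Sdhd from 10.34 to 10.42 and from 8.40 to 8.54. For all shunted groups against Sham each of the 4 genes was higher, by 0.02 to 0.09, with 0 of 4 at an unadjusted p under 0.05.

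In complex III the catalytic subunits differed little between groups. Cyc1, cytochrome c1, was 9.86 ± 0.15 in Sham, 9.88 ± 0.11 in PCA, 9.94 ± 0.05 in PCA+NH3, 9.88 ± 0.04 in PCA+LPS (n = 5 each) and at 9.9 on all 4 arrays of PCA+NH3+LPS. Uqcrfs1, the Rieske iron-sulfur protein, had group means from 8.28 to 8.40. The core proteins Uqcrc1 and Uqcrc2 had means from 9.30 to 9.35 and from 9.88 to 10.02. Over the 8 genes the median difference was 0 in PCA against Sham and lay between -0.03 and 0.02 in the infusion and factor comparisons, with Uqcrq as the one gene at an unadjusted p under 0.05.

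Complex IV has isoforms that differ between tissues. Cox4i1, the general form of subunit IV, was 10.32 ± 0.25 in Sham, 10.24 ± 0.11 in PCA, 10.30 ± 0.20 in PCA+NH3, 10.30 ± 0.16 in PCA+LPS (n = 5 each) and 10.25 ± 0.17 in PCA+NH3+LPS (n = 4). Cox4i2, the form known from lung and induced by low oxygen, was 5.6, 5.4, 5.3, 5.4 and 5.5 in Sham, 5.5, 5.4, 5.3, 5.1 and 5.3 in PCA, 5.3, 5.3, 4.9, 5.6 and 5.3 in PCA+NH3, 5.1, 5.3, 5.2, 4.8 and 5.3 in PCA+LPS and 5.6, 5.2, 5.5 and 5.5 in PCA+NH3+LPS. It overlapped between all groups. The probe sets of Cox4i2, of the muscle forms Cox6a2 and Cox8b, of the testis forms Cox6b2 and Cox8c and of Cox6c1 all lay below the median level of all probe sets, where an array value need not reflect the transcript.

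Of the general forms, Cox6a1 had group means from 11.02 to 11.14, Cox7a2 from 10.94 to 11.04 and Cox8a from 12 to 12.04. Cox5a, paired with Cox5b in the enzyme, lay between 10.53 and 10.60. Cox7b had the widest range of all members, at 1.2: it was 10.1, 9.6, 8.9, 9.3 and 9.2 in Sham, 9.9, 9.7, 9.4, 9.2 and 9.2 in PCA, 10.1, 9.7, 9.5, 9 and 9.2 in PCA+NH3, 10.1, 9.6, 9.6, 9.4 and 9.3 in PCA+LPS and 9.7, 9.5, 9.5 and 9.4 in PCA+NH3+LPS. The array numbered 1 was the highest in each group. Its group means lay between 9.42 and 9.60, within the SD of 0.45 in Sham. Over the 16 genes the median difference lay between -0.02 and 0.02 in the 7 comparisons.

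The catalytic head of complex V also differed little between groups. Atp5b, the beta subunit that carries the catalytic sites, was 11.5, 11.5, 11.4, 11.5 and 11.5 in Sham, 11.6, 11.4, 11.5, 11.5 and 11.4 in PCA, 11.6, 11.6, 11.5, 11.5 and 11.5 in PCA+NH3, 11.6, 11.5, 11.6, 11.4 and 11.5 in PCA+LPS and 11.5, 11.5, 11.5 and 11.6 in PCA+NH3+LPS. Its 95% interval for PCA against Sham ran from -0.12 to 0.12. The alpha subunit Atp5a1 had group means from 10.26 to 10.32, the gamma subunit Atp5c1 from 8.42 to 8.48 and the delta subunit Atp5d from 11.86 to 11.90. Atp5g2 and Atp5g3, which both encode the c subunit of the rotating ring, lay between 10.74 and 10.88 and between 10.22 and 10.32. Atp5h, the d subunit of the stalk, had 1 array at 10.2, PCA+LPS array 1, and lay between 9.4 and 9.9 on all others.

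**Figure D3:**
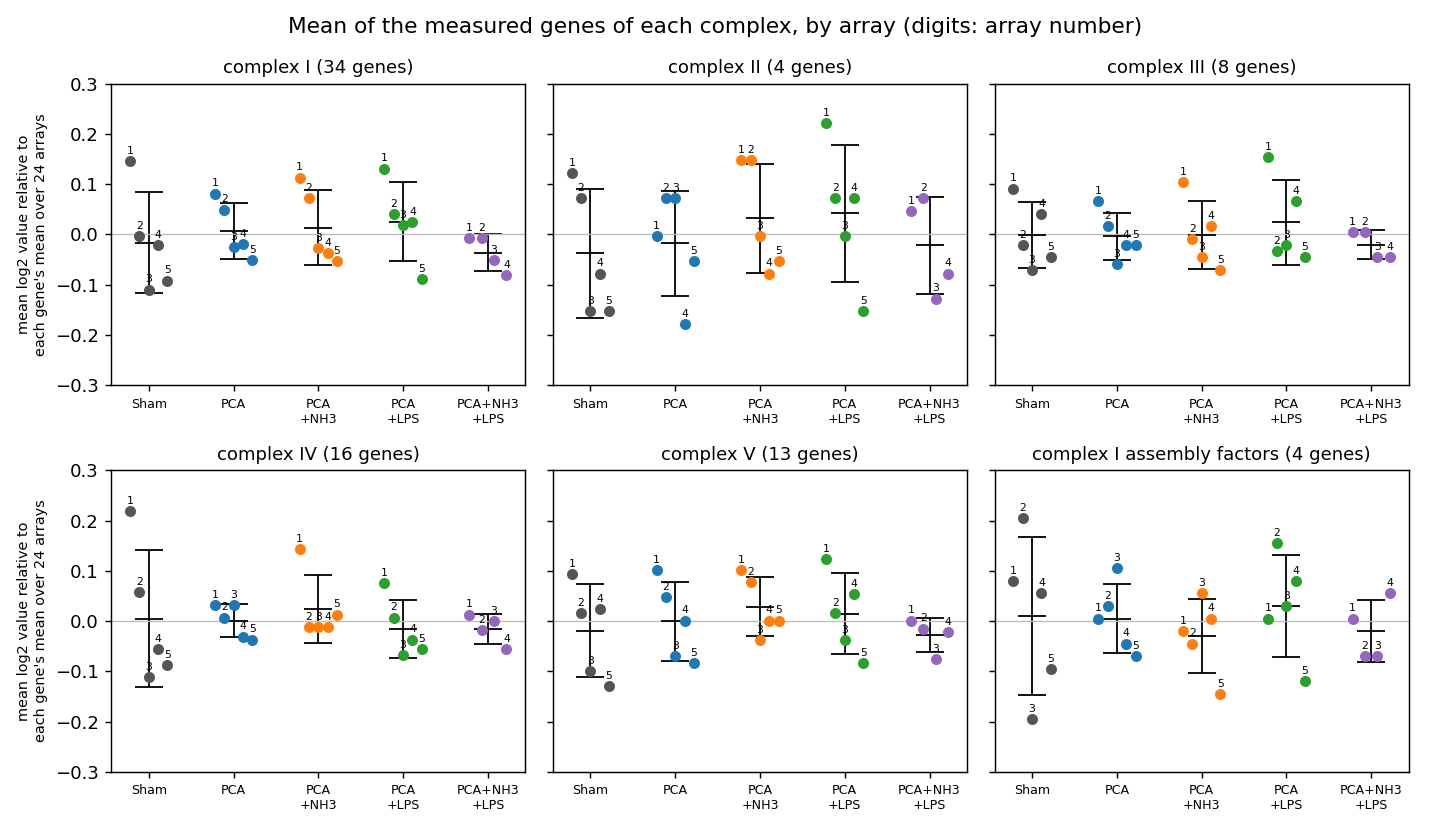
Mean log2 value of the measured genes of each complex, and of the 4 assembly factors of complex I, relative to each gene's mean over 24 arrays (y axis), for each array by group, with the mean and SD of the group as bars and the array number above each point. Complex I group means lie between -0.04 and 0.03, and the array numbered 1 is the highest, or equal to the highest, of complex I in every group.

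Ammonia and LPS together need not act as the sum of both, which the interaction tests. Here 0 of 82 members passed (0% of all genes, limma adjusted p of 0.997 or more), and 3 had an unadjusted p under 0.05 (3.66%, against 3.72% of all genes): Ndufb5 at -0.38 (SE 0.12), Cox4i2 at 0.35 (SE 0.16) and Atp5f1 at -0.20 (SE 0.09). Ndufb5 was 9.9, 10, 9.8, 9.8 and 9.7 in PCA, 10.1, 10, 9.9, 9.9 and 9.8 in PCA+NH3, 10.2, 10.1, 9.9, 9.9 and 9.9 in PCA+LPS and 9.7, 9.8, 9.8 and 9.6 in PCA+NH3+LPS. Each single infusion was thus above PCA in the mean and the combination below it, with overlap. A second, dimmer probe set of Ndufb5 differed: it stood at -0.24 (SE 0.12) for PCA+NH3 and at -0.26 (SE 0.12) for PCA+LPS against PCA, and its interaction had the opposite sign, at 0.14 (SE 0.17).

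The median interaction of the members was -0.07, with 64 of 82 below 0 (78%), against a median of 0.005 and 47.6% below 0 over all genes. Complex I had 30 of 34 below 0 and complex V 10 of 13. Lists of related genes, described below, varied. Of 18 glycolysis genes 16 lay below 0 (88.9%, median -0.112), and of 15 carriers and energy transfer genes 13 (86.7%, median -0.11). Of 18 citric acid cycle genes 13 did (72.2%, median -0.053), and of 7 mitochondrially encoded subunits 5 (71.4%, median -0.035). Of 25 other assembly factors 15 did (60%, median -0.02), and of 12 biogenesis regulators 7 (58.3%, median -0.045). Mitochondrial ribosomal proteins lay close to all genes, with 30 of 64 below 0 (46.9%, median 0.015). With each array centred on its median the sign turned, at 0.05 with 12 of 82 below 0, but the median of all genes then stood at 0.125, so that relative to all genes the members lay at -0.075, as before. Without the 4 arrays with choroid plexus signal, only arrays 3 and 4 of PCA+NH3 were left. The median was then -0.035 with 45 of 82 below 0 (54.9%, against 49.4% of all genes). Without 1 array at a time the count ran from 52 to 68. This is a description of the members and was not tested as a list.

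The members also shared a pattern inside the groups. The mean of the 82 genes on an array, relative to each gene's mean over all arrays, ran from -0.10 on Sham array 3 to 0.14 on Sham array 1, while group means were -0.01 ± 0.10 in Sham, 0 ± 0.05 in PCA, 0.01 ± 0.06 in PCA+NH3, 0.01 ± 0.07 in PCA+LPS (n = 5 each) and -0.03 ± 0.03 in PCA+NH3+LPS (n = 4). The group means thus lay closer together than the arrays of Sham. The array numbered 1 had the highest mean of its group in all 5 groups, at 0.141, 0.066, 0.106, 0.119 and 0.005. It held the group's highest value, ties included, in 50 of 82 members in Sham, 45 in PCA, 51 in PCA+NH3, 52 in PCA+LPS and 40 in PCA+NH3+LPS. Array 2 held it, ties included, in 24, 30, 30, 22 and 31 members in the same order. This count was not made over all genes, so it is not read as a result about the members. On the arrays numbered 1 the meningeal and fibroblast marker mean was -0.647, -0.535, -0.135, -0.497 and -1.047, and the choroid plexus mean -0.347, -0.670, 1.130, 0.376 and -0.708. The myelin mean was 1.163, -0.329, 0.409, 0.232 and 0.147, the brainstem mean 1.106, -0.094, 0.381, 0.069 and -0.206, and each was the highest of its group in Sham, PCA+NH3 and PCA+LPS. The astrocyte and microglial means were also highest on array 1 in those 3 groups, while none of the 10 marker lists had its highest mean on array 1 in all 5 groups. Of the lists of related genes described below, mitochondrial ribosomal proteins had their highest mean on array 1 in 4 groups. Citric acid cycle genes and mitochondrially encoded subunits did so in 3 groups, and other assembly factors in 2. Biogenesis regulators, glycolysis genes and carriers did so in 1 each. The part of the marker lists in the pattern was not tested, and the labels do not say what the sample number stands for.

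**Figure D4:**
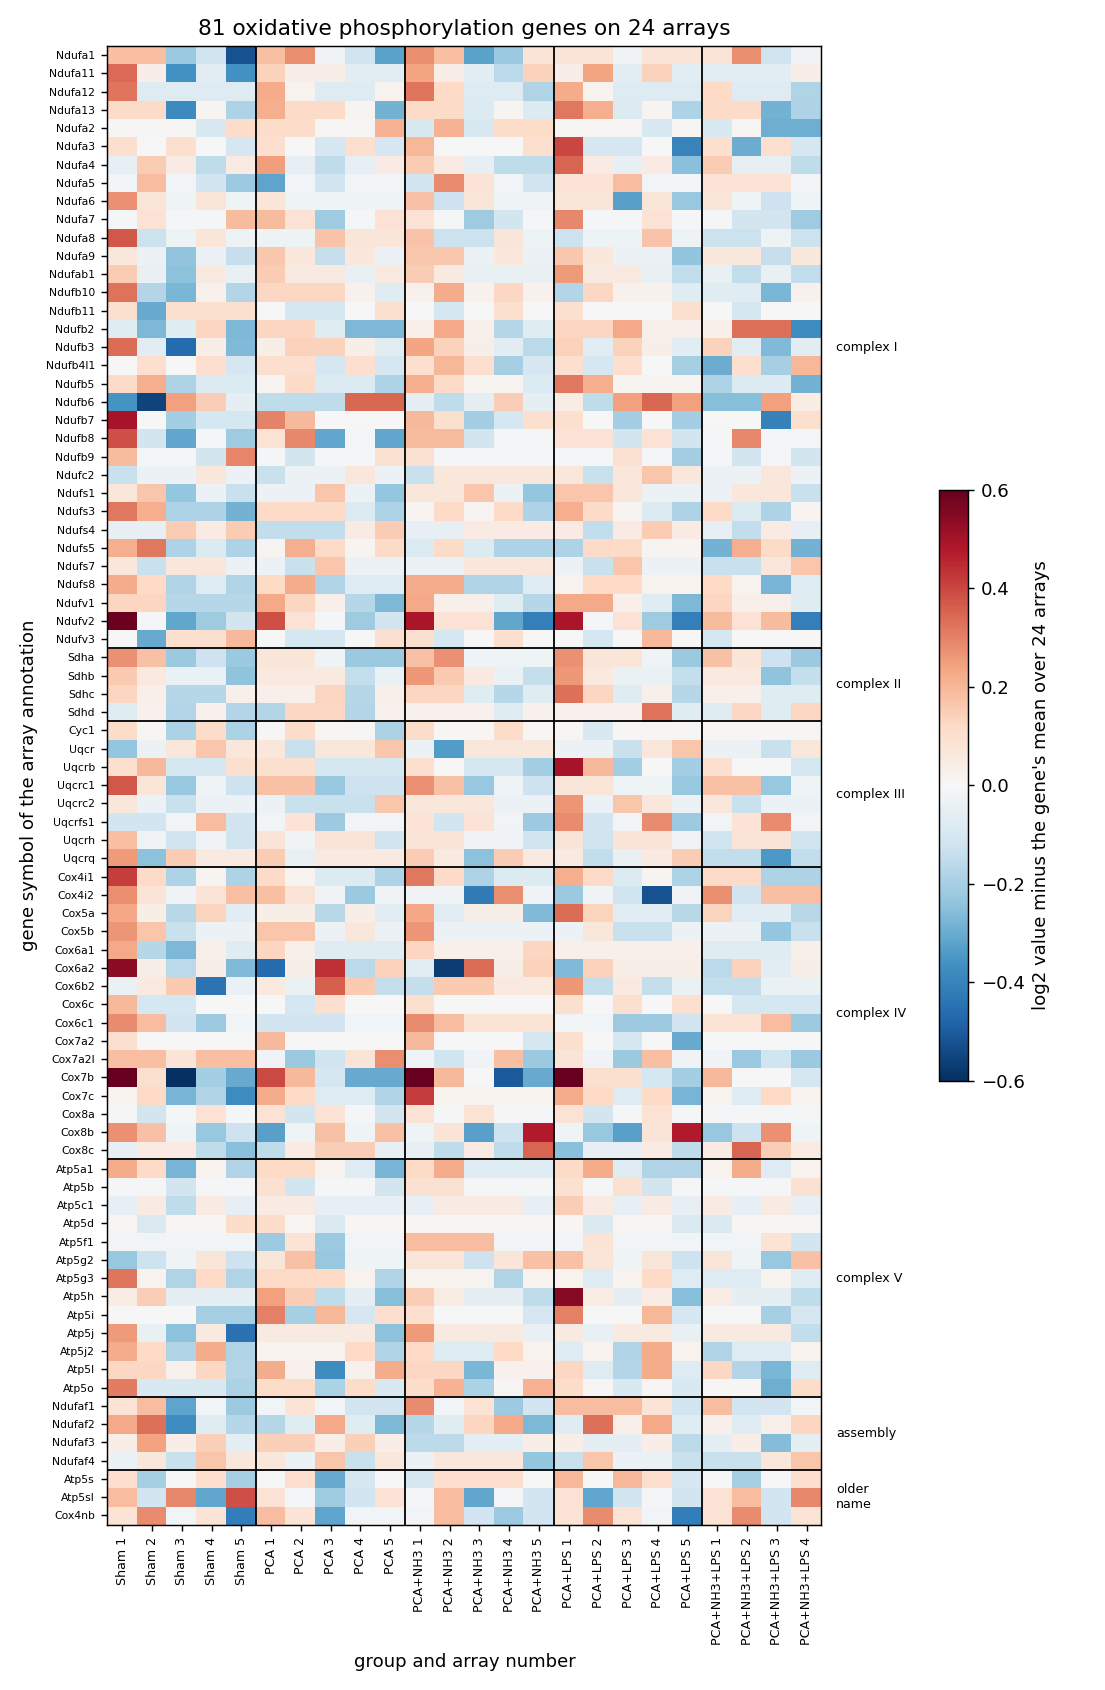
Log2 value of 81 of the genes (rows, by complex) on each of the 24 arrays (columns, by group), relative to the gene's mean over all arrays, with red above and blue below it. Columns of array 1 are mostly red in Sham, PCA, PCA+NH3 and PCA+LPS, with group means between -0.03 and 0.01.

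Mitochondrial DNA encodes 13 further subunits, of which 7 had a probe set with 1 symbol: ND1, ND2, ND5 and ND6 of complex I, CYTB of complex III, and COX1 and COX2 of complex IV. None passed in the 7 comparisons, and none had an unadjusted p under 0.05. COX1, the catalytic subunit of cytochrome c oxidase, was 12.80 ± 0.07 in Sham, 12.80 ± 0.07 in PCA, 12.86 ± 0.09 in PCA+NH3, 12.80 ± 0.10 in PCA+LPS (n = 5 each) and 12.82 ± 0.10 in PCA+NH3+LPS (n = 4). The ranges over 24 arrays were 0.3 to 0.5 for all but ND6. ND6, the one gene here that is encoded on the other strand of the mitochondrial genome, spanned 2.2, from 4.6 on PCA array 3 to 6.8 on array 1 of PCA+NH3 and of PCA+LPS. Its group means lay between 5.76 and 6.10 with SDs from 0.42 to 0.69, and the groups overlapped.

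**Figure D5:**
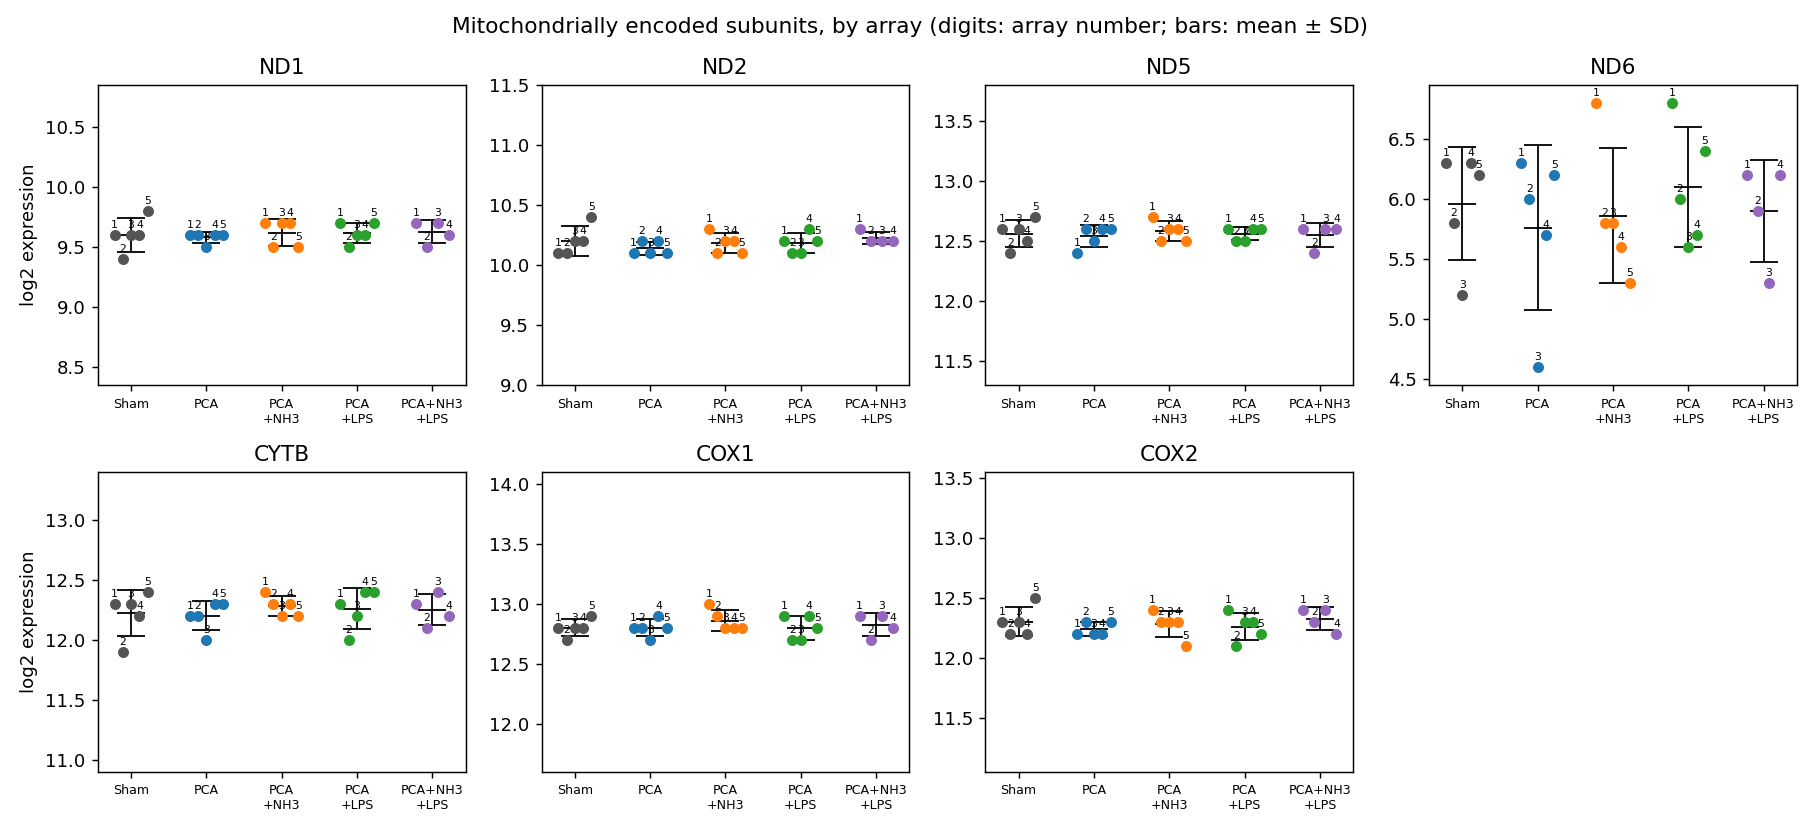
Log2 expression (y axis, each panel spanning the same width) of the 7 measured mitochondrially encoded subunits on each array, by group, with the mean and SD as bars and the array number above each point. COX1 group means lie between 12.80 and 12.86, and ND6 alone spreads over 2.2.

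Genes around the pathway gave 0 calls as well. Of 41 other assembly factors on the list 25 were measured, and 2 had an unadjusted p under 0.05 for PCA against Sham (8%, against 3.59% of all genes) and 4 for all shunted groups (16%, against 5.94%). Against PCA there were 2 for PCA+NH3 (8%, against 4.98%), 2 for PCA+NH3+LPS (8%, against 4.16%) and 0 for PCA+LPS (against 4.01%). The ammonia factor had 4 (16%, against 5.57%) and the LPS factor 0 (against 3.09%). Bcs1l, which inserts the Rieske protein into complex III, had the largest difference among them, at 0.36 (SE 0.10, limma adjusted p = 0.987) for PCA against Sham, with -0.22 (SE 0.10) for PCA+NH3 and -0.25 (SE 0.11) for PCA+NH3+LPS against PCA, which share the PCA arrays. Of 14 regulators of mitochondrial biogenesis 12 were measured. Ppargc1a, the coactivator PGC-1 alpha, stood at -0.10 (SE 0.08) for PCA against Sham, and Tfam, which packages and transcribes mitochondrial DNA, at 0.16 (SE 0.07) for all shunted groups, which did not pass. For the ammonia factor 10 of the 12 were lower (83.3%, against 52.6% of all genes) with a median of -0.07, and 0 of 12 had an unadjusted p under 0.05.

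Lists of fuel supply and of mitochondrial translation gave no call either. Of 20 citric acid cycle genes 18 were measured, with medians between -0.02 and 0.02 in the 7 comparisons, and Pdhb of the pyruvate dehydrogenase complex at 0.11 (SE 0.05, limma adjusted p = 0.84) for all shunted groups. Of 20 glycolysis genes 18 were measured, with medians between -0.01 and 0.05. The 15 measured of 17 carriers and energy transfer genes had medians between -0.04 and 0.06. Mitochondrial ribosomal proteins, 64 genes, had medians between -0.04 and 0.02, with 47 of 64 lower in PCA+NH3+LPS against PCA (73.4%, against 49.8% of all genes).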

How the data were processed

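Cerebellar RNA of 24 samples was hybridised to Affymetrix arrays after labelling of 5.5 µg of single-stranded DNA, per the labels' protocols. The authors deposited log2 values for each probe set, and the submitters' processing notes name RMA as the method. The RMA version, the annotation build and any filter were not stated there. Values came in steps of 0.1, which adds a rounding SD of 0.0289, and both deposited tables held the same log2 values. Of 29016 probe sets, 19338 had 1 symbol, 1521 several and 8157 none. Symbols were matched to rat RefSeq (14126 current, 3388 updated from a synonym, 1824 kept as given), and the probe set of highest mean was kept for the 836 genes with more than 1, which left 18137. Any 2 arrays differed at 75.2% of genes or more, so all were counted as separate samples. Arrays have no read depth, and their number limits the precision: the median SE was 0.099 for PCA against Sham and 0.0722 for the factors.

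All 24 arrays entered 1 limma 3.58.1 fit (R 4.3.3) with a mean per group and no covariate, with 19 residual and 4.39 prior degrees of freedom, two-sided tests and Benjamini-Hochberg adjustment over all 18137 genes at 0.05. The fit was tested on simulated data. The members, the gene lists and the tests were chosen with earlier results of these data known, so lists are described by counts and medians with no test. Named were members past the threshold, the 8 of smallest p in each of 7 comparisons, the 6 of smallest F-test p, the 6 of widest range, core subunits and tissue isoforms, 1 of which is not reported here. Promoters came from the RefSeq table of build GRCr8. Alternatives were the replicate block, array weights, other scalings, filters and probe set rules, and leaving out arrays. Same-numbered arrays of different groups correlated over 0.1 in 23 of 46 pairs, and 14 of 24 arrays correlated best with an array of their own number. The labels do not say that the numbers pair samples, so the main fit had no block for them. Spread that goes with the number therefore stays in the SE of that fit, and the replicate block was run as an alternative.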

Additional observations from a re-analysis of the deposited data

Results flagged for a closer look

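Each of 58 members and 8 means over all members or a class was tested in each of the 5 groups, 330 tests in all. Single arrays stood apart from their group in 25 cases among 20 of the 58 members. They also did so in the mean of complex IV and in the mean of the 3 genes with an older name. For continuous values chance marks about 1 in 20. Since values come in steps of 0.1, 14 of the 25 were a single step away from arrays that were otherwise equal. The share of 1 in 20 need not hold for such values, so the count is not set against it.

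Arrays numbered 1 were the ones apart for Ndufb7 (10) and Cox7a2 (11.1) in Sham, Cox7a2 in PCA (11.2), Cox7c (11.5), Ndufb9 (10.2) and Cox5b (8.8) in PCA+NH3, Cox6a2 in PCA+LPS (5) and Atp5d in PCA+NH3+LPS (11.8). The mean of complex IV on PCA+NH3 array 1 was 0.14 above the genes' means. PCA+NH3 array 2 held the highest mean of the 3 genes with an older name, at 0.16, and array 2 of PCA+LPS stood apart for Atp5f1 (9.5) and Cyc1 (9.8).

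Array 3 stood apart in Sham for Cox7a2l (10.1) and Atp5b (11.4), in PCA+NH3 for Uqcrq (9.1) and in PCA+NH3+LPS for Uqcrq (9), Ndufa9 (9.5), Ndufa8 (10.1) and Atp5g3 (10.3). Array 4 did so in PCA+NH3 for Sdhd (8.4) and Atp5g3 (10.1), in PCA+LPS for Ndufa2 (7) and Sdhd (8.8), and in PCA+NH3+LPS for Ndufa5 (9), Ndufv2 (9.7), Atp5b (11.6) and Cox6a1 (11.1).

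In 4 cases every array of 1 arm lay on one side of its control mean and every array of the other arm on the opposite side. The LPS difference with ammonia minus that without it was -0.2 for Atp5f1, -0.38 for Ndufb5 and -0.15 for Cox6a1, and the ammonia difference with LPS minus that without it was -0.2 for Uqcrc2. The limma interaction tests these differences, and its adjusted p was 0.997 for each. Such a separation can be less than a step of 0.1: Cox6a1 was 11.1 on every PCA+LPS array, against a PCA mean of 11.06. Cases of this kind were not counted over all genes, so their number is not read as a result about the members.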

How the results depend on the processing

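The count of 0 members held in every comparison under all 11 alternatives and in all 24 fits without 1 array, with limma adjusted p-values of 0.284 or more. Between 0 and 9 of the 82 members had an unadjusted p under 0.05. The most were in PCA+NH3 against Sham, where the main fit had 3 (3.66%, against 6.05% of all genes). Shares over all genes were not set beside the counts of every alternative, so these counts are not read as a result. Of the values named for single members, 3 turned: by the mean of all its probe sets Ndufb5 stood at -0.07 for PCA+NH3 and at -0.05 for PCA+LPS against PCA, its second probe set being dim and of opposite sign, and Ndufb7 stood at 0.01 for the LPS factor without the 4 arrays with choroid plexus signal, where the cause was not tested. The members' medians, near 0 throughout, ranged from -0.04 to 0.053 over the 7 comparisons and are not stable in sign. Centring arrays on their medians moved the median of all genes by 0.12 in the interaction and by 0.06 or less elsewhere. With the replicate block 0 members passed in any comparison, and the members' median interaction was -0.084. At an unadjusted p under 0.05 there were 0 for PCA against Sham (against 4.39% of all genes). Against PCA there were 4 for PCA+NH3 (4.88%, against 5.99%), 4 for PCA+LPS (4.88%, against 5%) and 7 for PCA+NH3+LPS (8.54%, against 4.97%). Against Sham there were 4 for PCA+NH3 (4.88%, against 7.65%), 3 for PCA+LPS (3.66%, against 9.43%) and 8 for PCA+NH3+LPS (9.76%, against 5.17%). All shunted groups against Sham gave 4 (4.88%, against 7.56%). The ammonia factor, the LPS factor and the interaction gave 5 each (6.1%, against 6.39%, 3.89% and 4.7%). The sample numbers are not known to pair samples, and 14 of 24 arrays correlated best with an array of their own number. With the filter on dim probe sets 74 members were left.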

Other observations

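The sample number in the titles ran through the members as follows, given as a description since the pattern was noticed in these same values. For Ndufv2 the means for numbers 1 to 5, relative to the group means, were 0.43, 0.05, 0.01, -0.27 and -0.26. Cox4i1 (0.24), Cox7b (0.47), Uqcrc1 (0.21), Ndufv1 (0.19) and Sdha (0.20) were also highest at number 1. Ndufb6 went the other way, with -0.15 and -0.25 for numbers 1 and 2 and 0.21 for number 4. An F-test of the number was run after the pattern had been seen and only restates it, so its p-values are not given. The pattern was not particular to the members. At an unadjusted p under 0.05 that limma F-test marked 53.7% of the members and 17.9% of all genes. It marked 60% of carriers and energy transfer genes, 38.9% of citric acid cycle genes and 36% of other assembly factors. The shares were 34.4% of mitochondrial ribosomal proteins, 27.8% of glycolysis genes, 16.7% of biogenesis regulators and 14.3% of mitochondrially encoded subunits. What the number stands for is not given in the labels, and no cause was tested.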
